A study of Mus musculus with 2 samples.

Results

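KAT8 peaks were examined at 10 genes that carry the signal of the endosomal receptor TLR7 through the adaptor MyD88: Unc93b1, Myd88, Irak4, Irak2, Traf6, Traf3, Map3k7, Tab1, Tab2 and Tbk1. They were taken by name from the 21887 protein-coding genes of the mouse annotation. Every peak whose interval touched the gene or the 20 kb on either side of it was counted, which gave 23 of the 44772 peaks of the R848 list and 29 of the 52001 peaks of the untreated list. The windows of the 10 genes did not share a peak. The libraries are KAT8 CUT&Tag, in which an antibody brings a transposase to the DNA around the bound protein, on wild-type macrophages derived in culture from mouse bone marrow cells (M-CSF, 20 ng/ml). The R848 group (1 library) received 100 ng/ml R848, a small-molecule TLR7 agonist, for 2 h, and the untreated group (1 library) did not. All coordinates are mm10. As each group is a single library, the differences below could not be checked in replicates and carry no p-values. KAT8 peaks lay over the starts of Traf3 and Irak4 and within 200 bp of the starts of Tab2 and Map3k7 in both lists, strongest at Traf3 (fold over background 7.50 in R848 and 5.99 in untreated cells). With q up to 0.05 asked of both peaks, they overlapped at the Traf3 start alone. Irak2 and Tbk1 had a peak at or next to their start in the untreated list alone, the peaks nearest the Myd88 start lay over the start of its neighbour Acaa1a, and Traf6 had no peak within 20 kb in either list.

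KAT8, a MYST-family enzyme also called MOF, acetylates histone H4 and other proteins as part of the MSL and NSL complexes. In the pathway, the chaperone UNC93B1 brings TLR7 to endosomes, where ligand binding recruits MyD88 and the kinases IRAK4 and IRAK2. The ubiquitin ligase TRAF6 then activates the kinase TAK1, encoded by Map3k7, together with its partners TAB1 and TAB2, which leads to NF-kB and MAP kinase signalling. TRAF3 and the kinase TBK1 belong to the branch that leads to interferon regulatory factors, and TRAF3 also restrains the alternative NF-kB route.

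For each peak the authors deposited a fold over the local background of the same library and the −log10 of its p- and q-values, all on the scale of their own list. The number of fragments stacked at the summit, called the pileup below, and the local background were solved from the fold and the p-value, and came out whole at all 23 R848 and 29 untreated peaks. The genome-wide background was 2.62 fragments in the R848 library and 3.37 in the untreated library, so the R848 library was the shallower. The smallest pileups called as peaks at these levels were 7 fragments in R848 and 8 in untreated cells, and a place with no peak may hold fewer fragments than that rather than none. Of 6 macrophage marker genes with a known start, Cebpa, Cebpb and Cd68 had a start peak in both lists and Mertk in the R848 list alone. The peaks of the lists did not overlap at Cebpa. Over all genes with a known start, 24.1% had a start peak in the R848 list, 28.7% in the untreated list and 17.9% in both. Among markers of other cells, a start peak was found in the R848 list at 1 of 5 T and B cell genes (Zap70), in the untreated list at 1 of 6 granulocyte and dendritic cell genes (Siglech), and in neither list at the 2 stromal genes. Within 20 kb of the gene all 10 macrophage markers had a peak in each list, but so did all 7 T and B cell markers in the R848 list, against 3 in the untreated list. Of the 6 granulocyte and dendritic cell markers, 4 (R848) and 3 (untreated) had one, as did 3 of the 4 stromal markers in each list. The share of all genes was 69.7% (R848) and 74.4% (untreated), so this window separates the marker groups poorly. Peaks of q up to 0.05 were near 3 (R848) and 2 (untreated) of the 7 T and B cell markers and near all 10 macrophage markers in each list. They were near 3 (R848) and 2 (untreated) of the 6 granulocyte and dendritic cell markers and 1 of the 4 stromal markers in each list. The share of all genes was 46.2% (R848) and 47% (untreated). The genes Cd3d, Cd3e and Cd3g are neighbours, so their windows overlap.

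Gene starts came from a RefSeq promoter table (GRCm38.p6, the assembly of mm10), which matched 8 of the 10 genes, all but Unc93b1 and Tab1. A start peak is one with any base within 1000 bp of the gene's start. At Unc93b1 and Tab1 the ends of the gene were used and are named by coordinate. The promoters of 6 genes are shown because they span the range of outcomes: Traf3, Map3k7 and Irak4 had overlapping start peaks in both lists, Tbk1 had a start peak in the untreated list, Traf6 had none, and the peaks near Myd88 lay over the start of its neighbour. Each runs 5′ to 3′ from 250 bases before to 50 bases after the start, with every CpG dinucleotide in capitals.
Traf3 (chr12:111166120-111166419, plus strand): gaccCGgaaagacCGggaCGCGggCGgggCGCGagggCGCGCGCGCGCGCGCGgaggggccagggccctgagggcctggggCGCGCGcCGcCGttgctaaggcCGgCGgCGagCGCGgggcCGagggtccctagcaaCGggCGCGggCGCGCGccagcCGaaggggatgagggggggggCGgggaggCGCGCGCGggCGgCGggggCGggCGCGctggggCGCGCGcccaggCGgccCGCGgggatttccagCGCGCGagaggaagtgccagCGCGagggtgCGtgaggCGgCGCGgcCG
Map3k7 (chr4:31963857-31964156, plus strand): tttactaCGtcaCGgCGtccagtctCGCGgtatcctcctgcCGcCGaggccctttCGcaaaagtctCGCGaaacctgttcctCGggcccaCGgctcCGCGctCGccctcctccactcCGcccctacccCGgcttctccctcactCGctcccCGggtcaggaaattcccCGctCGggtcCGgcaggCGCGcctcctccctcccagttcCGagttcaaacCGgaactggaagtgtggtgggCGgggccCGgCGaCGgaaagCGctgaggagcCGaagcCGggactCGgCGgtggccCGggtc
Irak4 (chr15:94543410-94543709, plus strand): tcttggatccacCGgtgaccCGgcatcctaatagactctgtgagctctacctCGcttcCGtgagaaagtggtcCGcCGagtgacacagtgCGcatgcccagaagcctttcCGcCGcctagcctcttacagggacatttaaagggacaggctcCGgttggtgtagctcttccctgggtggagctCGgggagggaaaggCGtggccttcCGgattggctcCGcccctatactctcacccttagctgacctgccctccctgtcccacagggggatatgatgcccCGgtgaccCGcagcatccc
Tbk1 (chr10:121586745-121587044, minus strand): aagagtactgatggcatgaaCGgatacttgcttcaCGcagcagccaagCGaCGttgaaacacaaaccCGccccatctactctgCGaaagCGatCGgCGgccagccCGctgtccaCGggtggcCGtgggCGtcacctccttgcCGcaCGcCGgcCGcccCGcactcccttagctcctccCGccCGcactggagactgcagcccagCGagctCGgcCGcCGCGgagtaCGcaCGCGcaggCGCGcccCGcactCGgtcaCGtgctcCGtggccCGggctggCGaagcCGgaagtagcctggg
Traf6 (chr2:101678170-101678469, plus strand): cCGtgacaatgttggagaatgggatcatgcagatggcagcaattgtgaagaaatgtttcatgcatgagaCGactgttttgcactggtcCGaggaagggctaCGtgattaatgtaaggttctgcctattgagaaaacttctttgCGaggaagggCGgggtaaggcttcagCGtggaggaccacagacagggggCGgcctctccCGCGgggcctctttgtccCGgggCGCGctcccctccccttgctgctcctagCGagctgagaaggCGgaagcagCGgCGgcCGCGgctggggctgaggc
Myd88 (chr9:119339969-119340268, minus strand): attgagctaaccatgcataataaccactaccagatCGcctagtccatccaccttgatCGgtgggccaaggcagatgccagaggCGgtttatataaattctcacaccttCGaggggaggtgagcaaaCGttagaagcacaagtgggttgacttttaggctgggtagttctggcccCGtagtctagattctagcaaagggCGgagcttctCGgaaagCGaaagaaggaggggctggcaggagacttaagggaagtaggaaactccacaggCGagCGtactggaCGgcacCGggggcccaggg

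The Traf3 promoter held 59 CpG, more than 99.9% of the 21263 protein-coding promoters in the table, whose median was 13. Tab2 (at the start farther upstream) had 44, Tbk1 37 and Map3k7 36, which placed each above at least 91.8% of promoters. Traf6 had 19, Irak2 18, Irak4 16 and Myd88 13, close to the middle of all promoters. A second Tab2 start, inside the gene, had 2. Among all promoters, the share with a start peak rose with the CpG count: it was 4.49% in the R848 list and 5.75% in the untreated list for 0 to 4 CpG, and 46.6% (R848) and 53.8% (untreated) for 25 to 67 CpG.

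**Figure D1:**
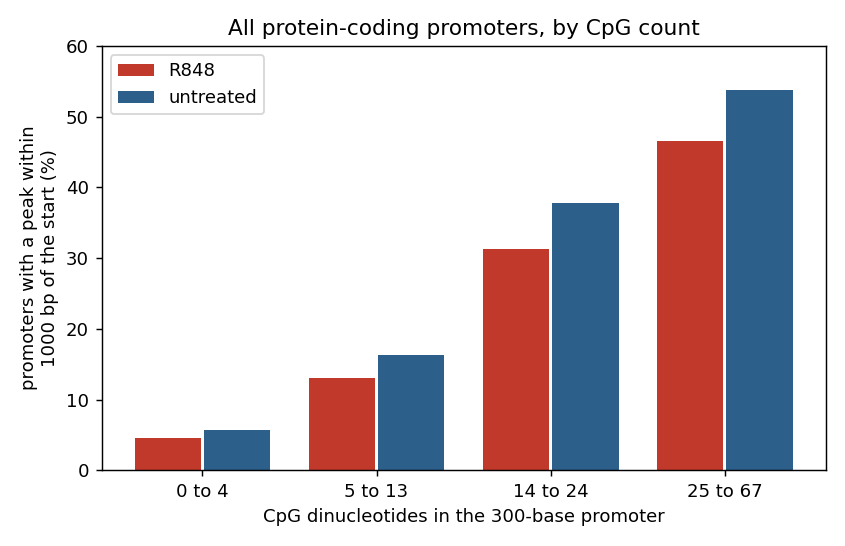
Percentage of all protein-coding promoters with a peak within 1000 bp of the start (vertical axis), in 4 groups of CpG count in the 300-base promoter (horizontal axis), for the R848 list (red) and the untreated list (blue). The share is lowest at 0 to 4 CpG (4.49% R848, 5.75% untreated) and highest at 25 to 67 CpG (46.6% R848, 53.8% untreated), the group that holds Traf3, the upstream Tab2 start, Tbk1 and Map3k7.

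A set of 5 short motifs was searched on both strands of these promoters. The GC box GGGCGG was in 8 of the 9 promoters of the 8 genes, all but the inner Tab2 start, against 46.2% of all promoters. The motif itself holds a CpG. These 8 promoters had 13 to 59 CpG, whereas the 46.2% is over promoters of any CpG count. The ETS core GGAAGT was in 6 of 9, against 24.8%, and in the Myd88 promoter it spanned the start itself. The NF-kB consensus matched at Traf3, beginning 10 bases before the start, and at Map3k7, beginning 92 bases before it, against 9.25% of all promoters. The E-box CACGTG was at Tbk1 alone (7.84% of all promoters) and TGACGT, part of the cAMP response element, at Map3k7 alone (8.49%). The matches at Map3k7 and Traf3 for NF-kB did not overlap another of these motifs. These are matches of letters, and no factor was measured here.

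At their own start, 4 of the 8 genes had a peak in the R848 list (Traf3, Irak4, Tab2 and Map3k7), against 24.1% of 17492 protein-coding genes with a known start. In the untreated list 7 of the 8 had one (the same 4 with Irak2, Tbk1 and Myd88), against 28.7%. Overlapping start peaks in both lists were found at 4 genes (17% of all genes), an R848 start peak alone at 0 (6.25%) and an untreated start peak alone at 3 (10.8%). Of these 3, Myd88 counts only by the edge of an untreated peak over the Acaa1a start, which does overlap an R848 peak. Unc93b1 and Tab1 are left out of the start counts for want of a known start. At the lower-coordinate end, Unc93b1 had overlapping peaks in both lists and Tab1 an R848 peak alone. Start peaks with q up to 0.05 were at 2 genes in the R848 list (15.4% of all genes) and 5 in the untreated list (17.3%), and such peaks overlapped at Traf3 alone. By CpG count, 4 of the 8 genes fall in the group of 25 to 67 (Tab2 by its upstream start), where 46.6% (R848) and 53.8% (untreated) of promoters had a start peak. Irak2, Irak4 and Traf6 fall in the group of 14 to 24 (31.3% R848, 37.8% untreated) and Myd88 in that of 5 to 13 (13.0% R848, 16.2% untreated). These are shares of promoters, not of genes. Whether CpG count bears on the counts at these genes was not tested. Within 20 kb of the gene, 9 of the 10 had a peak in each list, against 69.7% of all genes for R848 and 74.4% for untreated. These were the same 9 genes, all but Traf6, so 9 had peaks in both lists (60.9% of all genes) and 0 had one in the R848 list alone (8.81%) or the untreated list alone (13.4%). The peaks overlapped at 8 of them, all but Tab1, against 43.6%. With q up to 0.05 asked of the peak, 8 genes had an R848 peak (46.2% of all genes, without Irak4) and 8 an untreated one (47%, without Tab1). Longer genes have longer windows: the 10 genes were 4085 to 100835 bp long, and their windows held 2.86 R848 and 3.61 untreated peaks per 100 kb, against 1.97 (R848) and 2.27 (untreated) over the windows of all genes.

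**Figure D2:**
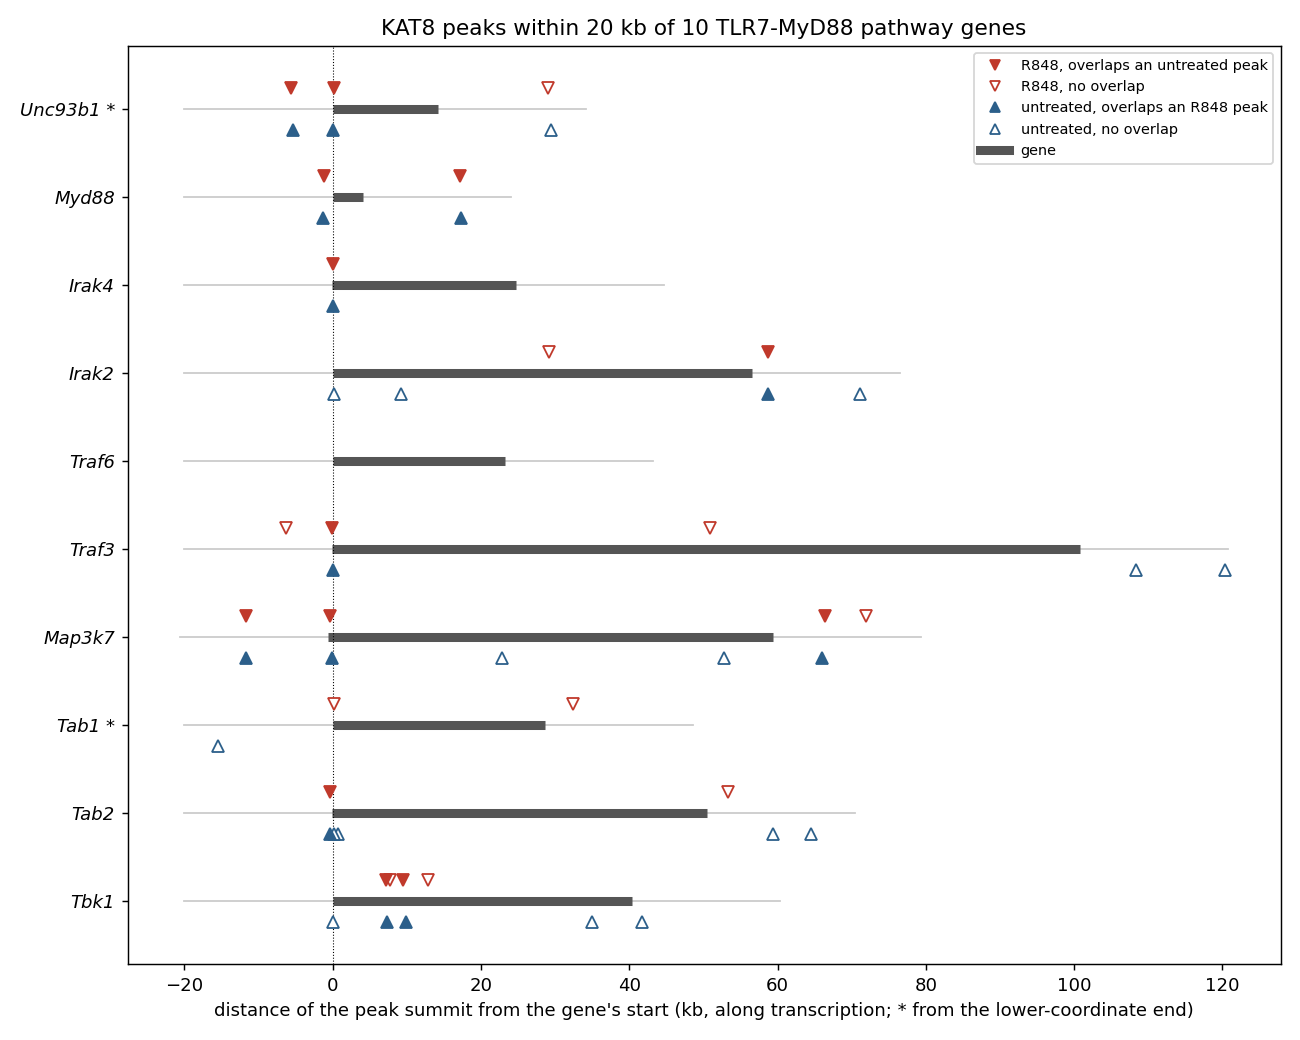
Position of every peak summit (triangles) along the horizontal axis in kb from the gene's start, in the direction of transcription, or from the lower-coordinate end for Unc93b1 and Tab1 (asterisks). Red triangles above each gene are R848 peaks and blue ones below it untreated peaks, filled where the peak overlaps the other list; thick bars are genes and thin lines the 20 kb on either side. Filled pairs sit within 1000 bp of the start of Irak4, Traf3, Map3k7 and Tab2 and 7 to 10 kb inside Tbk1, and Traf6 has no peak.

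Unc93b1, the chaperone, had 3 peaks in each list (chromosome 19, gene at 3935158 to 3949340). The lower-coordinate end of the gene carried the strongest of them in both. In the R848 list this peak (chr19:3934822-3935526, 705 bp, summit 3935385) had a fold of 3.59, −log10 p of 5.41, −log10 q of 2.07 and a pileup of 12 fragments. In the untreated list (chr19:3935027-3935607, 581 bp, summit 3935172) it had a fold of 5.72, −log10 p of 13.4, −log10 q of 9.45 and 24 fragments. The untreated peak was thus among the top 2.58% of its list by p-value, and the R848 peak among the top 19.2% of its own. A weaker shared pair lay at the start of the neighbouring aldehyde dehydrogenase gene Aldh3b1, with a fold of 3.12 and 11 fragments in R848 (chr19:3929236-3929553) and 2.98 and 12 fragments in untreated cells (chr19:3929387-3929835). The last peak of each list, inside Aldh3b3, was counted as unshared although only 1 bp separated them: chr19:3964156-3964355 in R848 (fold 2.91, −log10 q 0.941) and chr19:3964357-3964752 in untreated cells (fold 3.20, −log10 q 1.75).

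Myd88, the adaptor, lies on the minus strand of chromosome 9 (119335934 to 119340018) and had 2 peaks in each list, all of them shared and none inside the gene. Those nearest its start lay over the start of Acaa1a, a peroxisomal thiolase gene that runs the other way. The R848 peak there (chr9:119341033-119341380, 348 bp, summit 119341195) had a fold of 3.87, −log10 p of 6.14, −log10 q of 2.69 and 13 fragments. The untreated one (chr9:119340922-119341484, 563 bp, summit 119341306) had a fold of 4.35, −log10 p of 8.45, −log10 q of 4.80 and 18 fragments. The summits were 99 bp (R848) and 12 bp (untreated) from the Acaa1a start, and 1177 bp (R848) and 1288 bp (untreated) upstream of the Myd88 start. Only the edge of the wider untreated peak came within 1000 bp of Myd88, so Myd88 counts as having an untreated start peak by that edge alone. The other pair lay at the start of the kinase gene Oxsr1, downstream of Myd88. There the fold was 3.87 with 13 fragments in R848 (chr9:119322725-119323058) and 4.12 with 17 fragments in untreated cells (chr9:119322592-119322937).

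Irak4, the kinase that MyD88 recruits first, had a single peak in each list, at its start (chromosome 15, gene at 94543613 to 94568317). The R848 peak (chr15:94543298-94543878, 581 bp, summit 94543739) had a fold of 3.04, −log10 p of 4.03, −log10 q of 1.01 and 10 fragments. The untreated peak (chr15:94543314-94543947, 634 bp, summit 94543725) had a fold of 4.81, −log10 p of 10.02, −log10 q of 6.25 and 20 fragments. The summits were 14 bp apart, the closest of all shared pairs, at 79 bp (R848) and 65 bp (untreated) after the start of Irak4. The start of Pus7l, a gene for a predicted pseudouridine synthase that runs the other way, was 232 bp (R848) and 218 bp (untreated) from these summits, so each peak spans the starts of both genes, with its summit inside Irak4.

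Irak2, a second kinase of the receptor complex (chromosome 6, 113638467 to 113695026), had no peak of the R848 list at its start. The untreated list had a narrow one there (chr6:113638592-113638791, 200 bp, summit 113638694, 227 bp after the start) with a fold of 2.98, −log10 p of 4.28, −log10 q of 1.26 and 12 fragments. The nearest R848 peak was 28662 bp away, inside the gene (chr6:113667454-113667653, 200 bp, fold 2.75, −log10 q 0.699), and was itself found in that list alone. A further untreated peak lay inside the gene (chr6:113647447-113647733, fold 2.52, −log10 q 0.462) and another beyond it, inside Tatdn2 (chr6:113709473-113709990, fold 3.43, −log10 q 2.28). The strongest untreated peak of the whole gene set was also at this locus but at the start of Tatdn2, a gene for a TatD-type deoxyribonuclease domain protein. There the R848 peak (chr6:113696820-113697329, 510 bp, summit 113697170) had a fold of 3.78, −log10 p of 5.99, −log10 q of 2.60 and 13 fragments. The untreated peak (chr6:113696707-113697418, 712 bp, summit 113697130) had a fold of 7.17, −log10 p of 21.0, −log10 q of 16.9 and 34 fragments. Both summits were within 120 bp of the Tatdn2 start.

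Traf6, the ubiquitin ligase (chromosome 2, 101678420 to 101701668), had no peak in either list within 20 kb, like 16.8% of all genes. The nearest peak was 95.6 kb from the gene in the R848 list (fold 2.76, −log10 q 0.581) and 49.3 kb in the untreated list (fold 2.75, −log10 q 0.831).

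Traf3 (chromosome 12, 111166321 to 111267155) had the most significant start peak of the set in both lists. The R848 peak (chr12:111165684-111166712, 1029 bp, summit 111166260) had a fold of 7.50, −log10 p of 28.2, −log10 q of 23.9 and 47 fragments. The untreated peak (chr12:111165560-111166609, 1050 bp, summit 111166399) had a fold of 5.99, −log10 p of 18.1, −log10 q of 14.0 and 34 fragments. These were the widest peaks of the set, the R848 summit 110 bp before and the untreated summit 29 bp after the start. Both summits also lay inside the non-coding gene 4930595D18Rik, 18231 bp (R848) and 18092 bp (untreated) from its start. By p-value they stood in the top 0.956% of R848 and the top 1.62% of untreated peaks, and by fold 3.17% of R848 and 7.25% of untreated start peaks were higher. The local background was raised around them in both libraries, to 5.40 (R848) and 4.84 (untreated). No other Traf3 peak was shared: the R848 list had one 6326 bp before the start, also inside 4930595D18Rik (chr12:111159808-111160242, fold 3.89, −log10 q 2.95), and a 200 bp one inside Traf3 (chr12:111217252-111217451, fold 2.76, −log10 q 0.581). The untreated list had weak ones beyond the gene, inside Amn (chr12:111274594-111274808, fold 2.52, −log10 q 0.462) and inside a non-coding gene (chr12:111286682-111287009, fold 2.34, −log10 q 0.346).

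Map3k7, which encodes TAK1 (chromosome 4, 31963492 to 32023470), had weak peaks in both lists, with 3 shared pairs. The start used here was 31964107, so the peaks just before it still lay inside the annotated gene. The R848 peak there (chr4:31963611-31964052, 442 bp, summit 31963732) had a fold of 2.76, −log10 p of 3.40, −log10 q of 0.581 and 9 fragments. The untreated peak (chr4:31963708-31964030, 323 bp, summit 31963991) had a fold of 2.29, −log10 p of 2.60, −log10 q of 0.163 and 9 fragments. They ended 55 bp (R848) and 77 bp (untreated) before the start. Neither reached a q of 0.05, and 75.6% of R848 and 93.8% of untreated start peaks had a higher fold. Another pair lay about 12 kb before the start (chr4:31952209-31952617, fold 3.04 in R848, and chr4:31952313-31952512, fold 2.75 in untreated cells), and the strongest beyond the gene, at fold 3.81, −log10 q 2.81 and 14 fragments in R848 (chr4:32030261-32030663) and fold 3.20, −log10 q 1.75 and 13 fragments in untreated cells (chr4:32030030-32030480). The unshared peaks were one beyond the gene in R848 (chr4:32036053-32036413, fold 2.49), and in untreated cells 2 inside it (chr4:31986952-31987151, fold 2.06, and chr4:32016511-32016892, fold 2.52).

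Tab1, an activating partner of TAK1 (chromosome 15, 80133127 to 80161707), had no shared peak. Its lower-coordinate end carried an R848 peak (chr15:80132992-80133491, 500 bp, summit 80133327) with a fold of 3.32, −log10 p of 4.70, −log10 q of 1.51 and 11 fragments, which lies inside the non-coding gene Gm31253 as well. The only untreated peak of the locus was 15137 bp from it, inside the neighbour Syngr1 (chr15:80117559-80117854, fold 2.98, −log10 q 1.26, 12 fragments). A second R848 peak lay beyond the other end (chr15:80165391-80165590, 200 bp, fold 3.25, −log10 q 1.59).

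Tab2, the adaptor that ties TAK1 to ubiquitin chains (chromosome 10, minus strand, 7905648 to 7956255), had a start peak in each list that overlapped, and 2 more in untreated cells, none of which covered the start itself. The R848 peak (chr10:7956309-7956574, 266 bp, summit 7956454) had a fold of 4.70, −log10 p of 8.51, −log10 q of 4.78 and 16 fragments. The untreated peak over it (chr10:7956274-7956648, 375 bp, summit 7956550) had a fold of 2.75, −log10 p of 3.69, −log10 q of 0.831 and 11 fragments. The overlapping peaks began 186 bp (R848) and 151 bp (untreated) upstream of the start. The other untreated peaks were inside the gene, at chr10:7955840-7956039 (fold 2.29, −log10 q 0.163, 9 fragments) and chr10:7955323-7955600 (fold 3.66, −log10 q 2.85, 15 fragments). Beyond the far end of the gene the lists had separate peaks, in R848 at chr10:7902605-7903050 (fold 4.42, −log10 q 4.04, 15 fragments) and in untreated cells at chr10:7896641-7896918 and chr10:7891262-7891704 (fold 3.43, −log10 q 2.28 and 14 fragments each).

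Tbk1, the kinase of the interferon branch (chromosome 10, minus strand, 121546455 to 121586794), had no R848 peak at its start. The untreated peak there (chr10:121586681-121586943, 263 bp, summit 121586777, 17 bp after the start) had a fold of 3.43, −log10 p of 5.57, −log10 q of 2.28 and 14 fragments, with the nearest R848 peak 6568 bp away. The R848 peaks of the locus were all inside the gene. The strongest (chr10:121576789-121577449, 661 bp, summit 121577326, 9468 bp after the start) had a fold of 4.70, −log10 p of 11.1, −log10 q of 7.18 and 24 fragments. The untreated peak over it (chr10:121576759-121577563, 805 bp, summit 121576956) had a fold of 2.84, −log10 p of 4.37, −log10 q of 1.34 and 14 fragments. A second shared pair lay 7189 bp (R848) and 7277 bp (untreated) after the start, with a fold of 3.59 in R848 (chr10:121579526-121580112) and 3.74 in untreated cells (chr10:121579360-121580187), and 16 fragments in each. Between the pairs the R848 list had a further peak (chr10:121578917-121579202, fold 3.36, 15 fragments), which ended 157 bp from the untreated one, and another lay deeper in the gene (chr10:121573708-121574026, fold 2.70, 11 fragments). The local background of these 4 R848 peaks was 3.44 to 4.32 fragments, above the genome-wide 2.62. At the untreated peaks of the shared pairs it was raised too, to 4.28 and 3.54, against 3.37 genome-wide in that library. The other untreated peaks were weak and at or beyond the far part of the gene (chr10:121551675-121551945 and chr10:121544967-121545223, fold 2.75 each).

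**Figure D3:**
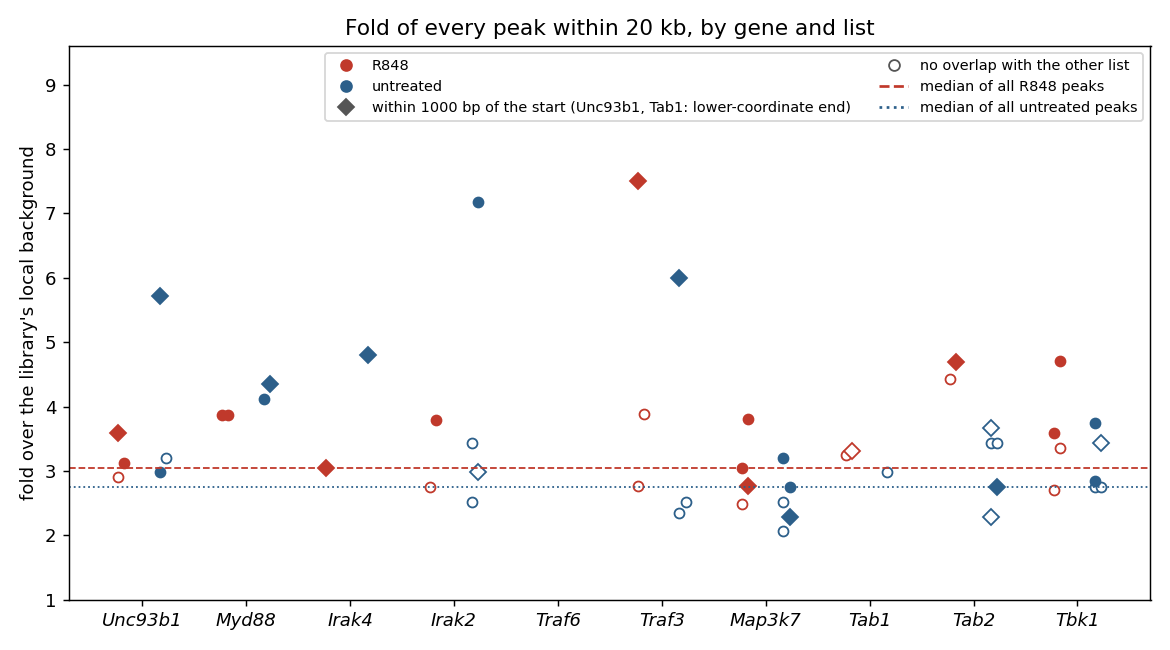
Fold over local background of each peak within 20 kb (vertical axis), by gene (horizontal axis), with R848 peaks in red on the left and untreated peaks in blue on the right of each gene. Diamonds lie within 1000 bp of the start (for Unc93b1 and Tab1, of the lower-coordinate end), open symbols have no overlap with the other list, and the lines are the medians of all R848 peaks (3.04, dashed) and all untreated peaks (2.75, dotted). The highest R848 fold is the Traf3 start (7.50) and the highest untreated fold the peak near Irak2 (7.17), which lies at the start of Tatdn2.

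Over the 10 loci, 13 of the 23 R848 peaks overlapped an untreated peak (56.5%, 95% exact binomial interval 34.5 to 76.8), against 35.8% of all R848 peaks. Of the 29 untreated peaks, 13 overlapped an R848 peak (44.8%, 26.4 to 64.3), against 31.0% of all untreated peaks. Both intervals cover counting error only, and the R848 interval includes 35.8% as the untreated one includes 31.0%. Over all protein-coding genes, 67.1% of R848 and 56.2% of untreated start peaks were shared. Here 4 of the 23 R848 and 9 of the 29 untreated peaks were at the gene's own start. The 9 include 3 peaks of Tab2 and, near Myd88, the untreated peak over the Acaa1a start. The R848 partner of that last peak counts as at another gene's start, so the 4 and the 9 are not like counts. Shared were 4 of 4 R848 and 5 of 9 untreated peaks at the own start, and 4 of 4 and 3 of 3 at another gene's start. Inside the gene 2 of 6 were shared in each list, and outside it 2 of 7 (R848) and 2 of 10 (untreated). At the lower-coordinate ends of Unc93b1 and Tab1 it was 1 of 2 (R848) and 1 of 1 (untreated). Whether position bears on the shares at these loci was not tested. Shared peaks of the 10 loci had a median fold of 3.78 (R848) and 3.74 (untreated), and unshared ones 3.08 (R848) and 2.86 (untreated). A q of 0.05 or less was reached by 15 R848 peaks, of which 10 were shared, against 41.1% of all R848 peaks, and by 15 untreated peaks, of which 9 were shared, against 36.3% of all untreated peaks. Among the unshared peaks, 2 R848 and 2 untreated ones ended within 500 bp of a peak of the other list.

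To set the shared pairs side by side at unequal depth, each summit pileup was divided by its library's genome-wide background, and the ratio of R848 to untreated was given a 95% exact binomial interval for the fragments counted. The interval held 1 at 10 of the 13 pairs. With each pileup divided by the local background of its peak instead, a choice added after seeing the data, it held 1 at all 13, so a difference that stands under both scalings was not detectable at this depth. At the Traf3 start the ratio was 1.78 (1.12 to 2.85) over the genome-wide background and 1.24 (0.780 to 1.99) over the local one, from 47 fragments in R848 and 34 in untreated cells. At the stronger pair inside Tbk1 it was 2.21 (1.10 to 4.61) genome-wide and 1.70 (0.844 to 3.55) locally, from 24 R848 and 14 untreated fragments. The summits of this Tbk1 pair were 370 bp apart, the farthest of the 13 pairs, so its fragments were counted at different places. At the Tatdn2 start near Irak2 the ratio was 0.492 (0.238 to 0.956) genome-wide and 0.549 (0.266 to 1.07) locally, from 13 R848 and 34 untreated fragments. Over the genome-wide background, the Irak4 start and the lower-coordinate end of Unc93b1 each had a ratio of 0.643, with intervals of 0.269 to 1.44 and 0.293 to 1.34. The Tab2 start had 1.87 (0.816 to 4.46) and the Map3k7 start 1.29 (0.452 to 3.66). Over 14783 one-to-one shared pairs of the whole lists the median ratio was 1.09 (quartiles 0.919 and 1.29), so a ratio a little above 1 is common. The intervals compare these libraries and not the conditions, leave out the spread between cultures, and were not adjusted for the 13 pairs.

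**Figure D4:**
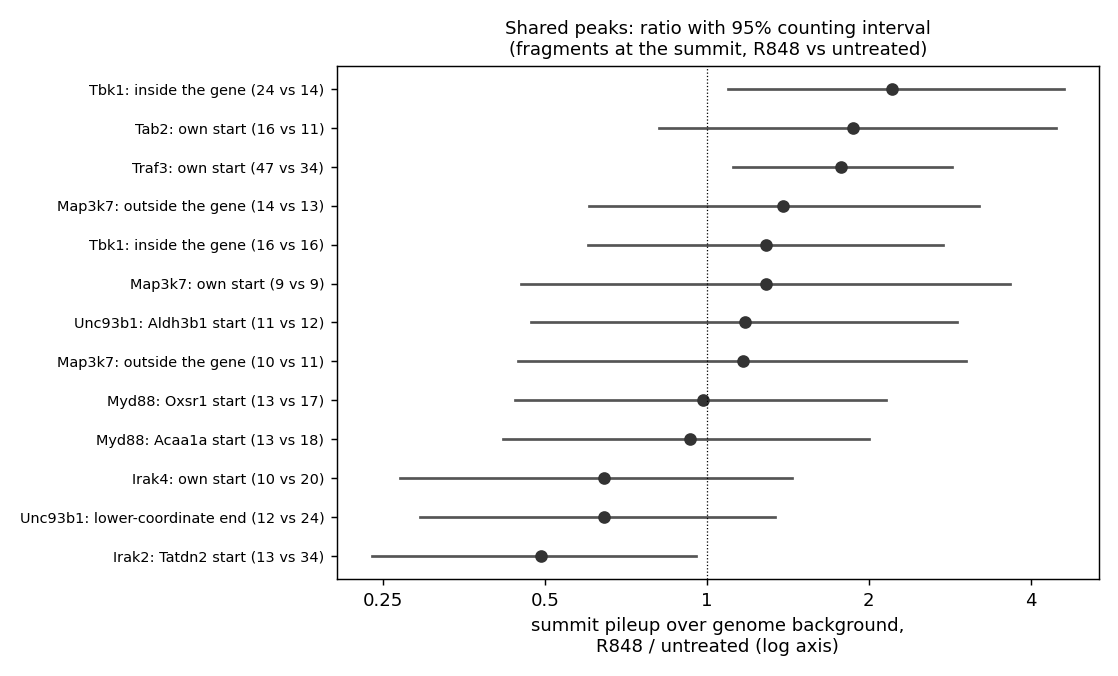
Ratio of the summit pileup in R848 to that in untreated cells, each over its library's genome-wide background (horizontal log axis), for the 13 shared pairs, with 95% exact binomial intervals as lines. The fragments at the summit stand in parentheses, R848 before untreated. The interval lies above 1 at the Traf3 start (1.78) and at one pair inside Tbk1 (2.21, summits 370 bp apart). It lies below 1 at the Tatdn2 start (0.492) and across 1 at the other 10. Over local backgrounds (not drawn) it held 1 at all 13.

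Another 31 genes of the pathway were listed by role, of which 27 had a known start. Start peaks were found at 11 of the 27 in the R848 list, against 24.1% of all genes, and at 12 in the untreated list, against 28.7%. At 10 genes the peaks of both lists overlapped, against 17%. The raw R848 fold was the higher at 6 of these 10 genes and the raw untreated fold at 4: Hsp90b1 (3.04 in R848 and 5.26 in untreated cells), Ube2v1 (2.75 in R848, 3.89 untreated), Map2k3 (3.04 in R848, 3.64 untreated) and Tbkbp1 (2.49 in R848, 3.43 untreated). Raw folds of libraries of unequal depth are not on one scale: the median over all peaks was 3.04 in R848 and 2.75 in untreated cells. The counts of 6 and 4 therefore give no direction. The next 5 are named for their R848 fold, so their direction is no result. Peli1, a ubiquitin ligase of IRAK complexes, had the highest R848 fold of these (6.36, with 3.89 in the untreated list). It was followed by Ube2n, the ubiquitin-conjugating partner of TRAF6 (5.25 in R848 and 4.81 in untreated cells). Rela, the NF-kB subunit p65, and Azi2, a TBK1 adaptor, had 4.70 each in R848, with 3.20 (Rela) and 3.89 (Azi2) in untreated cells. Cnpy3, a chaperone of Toll-like receptors, had 3.87 in R848 and 3.43 in untreated cells. Tank, a scaffold of TBK1, had a start peak in the R848 list alone (fold 3.59, −log10 q 2.07, 12 fragments). Lgmn, an endosomal protease that processes Toll-like receptors (fold 3.89, −log10 q 3.47, 16 fragments), and Ticam1, the adaptor TRIF (fold 2.52, −log10 q 0.462, 10 fragments), had one in the untreated list alone. Tlr7 on chromosome X (167303380 to 167330574) had no peak within 20 kb in either list, the nearest being 89.2 kb away in R848 and 51.9 kb in untreated cells.

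No control or accessibility library was analysed, so how much of these counts comes from cutting of open or CpG-rich promoters was not tested. At the edge of the 20 kb window, the farthest peak counted was the untreated one 19.5 kb beyond Traf3 (fold 2.34), and the nearest left out was an R848 peak 20.3 kb from Tbk1 (fold 2.76).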

How the data were processed

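KAT8 CUT&Tag was measured in 1 R848 library and 1 untreated library, grouped by the treatment label. Per the submitters' processing notes, the mm10 build and the tools MACS2 2.2.7.1, Bowtie 0.12.8 and DiffBind were used, without stated roles. Duplicate handling, caller settings and any control library were not given in the sources used here. The deposited lists, 1 per library, hold a score (10 times −log10 p), a fold over background (a ratio), −log10 p, −log10 q and the summit. The lowest −log10 p was 2.01 in each list, so many weak peaks are included, and a deeper library passes that threshold at a lower fold.

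Pileup and background were solved from fold = (pileup + 1) / (background + 1) and the Poisson tail, whole within 0.05 of a fragment for nearly all peaks (99.996% R848, 99.998% untreated). Sharing meant an overlap of at least 1 bp, checked with bedtools 2.31.1. Genes and promoters came from RefSeq tables of GRCm38.p6. The code ran in Python 3.11.15 with scipy 1.17.1 and was tested on simulated data.

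The 10 genes, the further pathway list and the rules were chosen with earlier results of these data known. All 10 genes are named whatever their values. Of the further list, named genes are those with a start peak in 1 list only, the 5 shared ones with the highest R848 fold, the 4 shared ones with the higher untreated fold, and Tlr7. The alternatives were stricter q-values, equal list lengths, other overlaps and windows, and scaled untreated pileups; a gap of 500 bp, summit-based start peaks and local backgrounds for the ratios were added after the data were seen.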

Additional observations from a re-analysis of the deposited data

How the results depend on the processing

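Of 68 values recomputed for 10 counts under 11 alternatives, 47 stayed within 1.5 times the count given. With only peaks of q up to 0.05, the 10 loci had 15 R848 and 15 untreated peaks, with 8 shared in each list. Start peaks were then at 2 of the 8 genes in the R848 list (Tab2 and Traf3) and at 5 in the untreated list, overlapping at 1 (Traf3), and 6 further pathway genes had an R848 start peak. With −log10 q of at least 5, there were 2 R848 and 4 untreated peaks, 1 of them shared in each list. Start peaks were then at 1 gene (R848) and 2 genes (untreated), overlapping at 1, and at 2 further pathway genes in each list. Windows of 5 kb left 18 untreated peaks. Windows of 50 kb gave 39 R848 peaks and 20 shared peaks in each list. At equal list lengths or with untreated pileups scaled to the R848 background, the untreated start count was 6 and overlapping start peaks were at 3 genes, within 1.5 times of the counts given. Counting start peaks by summit, an alternative chosen after seeing the data, removed Myd88 and left 6 untreated start genes. Over local backgrounds, also chosen after seeing the data, 0 pairs had a ratio interval without 1, against 3 over the genome-wide background. No paired analysis was possible because each group has 1 library and the counts come from no test. At 7 to 8 fragments as the lowest pileup called, a place with fewer fragments cannot be told from an unbound one.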
